A study of Mus musculus with 6 samples.

Results

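The genes described here are 10 regulators of G protein signalling, the RGS genes Rgs1, Rgs2, Rgs3, Rgs10, Rgs12, Rgs13, Rgs14, Rgs16, Rgs18 and Rgs19. They were chosen by name: every probe set of the array whose annotation gives 1 of these symbols was taken, which gave 22 of the 45037 probe sets tested and 10 of 18193 genes. All 10 members were present, with 1 to 4 probe sets each, and all 22 probe sets are accounted for below. Transcripts were measured on 1-colour Affymetrix arrays of C57BL/6 mouse cells, 3 arrays of plasma cells and 3 of B cells. The plasma cells came from bone marrow, were B220 negative and CD138 positive, and were taken 7 days after a KLH boost (KLH is a protein antigen), by bead enrichment against CD138 followed by a sort. The B cells were B220 positive and CD23 positive cells of the spleen, for which no boost is given. Input was 50000 to 70000 plasma cells and 2000000 to 3000000 B cells, so tissue, boost, enrichment and input changed together with the cell type and cannot be told apart from it. Nothing in the labels says whether the 3 arrays of a group came from separate animals or pools, and p-values therefore cover the spread among these arrays alone, part or all of which could be technical.

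RGS proteins speed up the hydrolysis of GTP by the alpha subunit of a heterotrimeric G protein and so shorten the signal of the receptor that activated it. In lymphocytes they are best known for limiting the response to chemokines, which signal through alpha subunits of the Gi class. The family is sorted by sequence into small R4 proteins (here Rgs1, Rgs2, Rgs3, Rgs13, Rgs16 and Rgs18), the R12 group (Rgs10, Rgs12 and Rgs14) and the RZ group (Rgs19). Most members act on Gi and Gq alpha subunits, while Rgs2 prefers Gq.

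The sort markers Sdc1 and Fcer2a followed the gates. Ptprc, the gene of B220, was lower in the B220 negative plasma cells but far above background. It had 4251, 4288 and 4170 in plasma cells, against 9341, 9599 and 9419 in B cells. Sdc1, the CD138 gene, lay between 12664 and 13218 in plasma cells, against 969 to 1183 in B cells, and Fcer2a, the CD23 gene, lay between 44.0 and 52.0 in plasma cells, against 5061 to 6734 in B cells. B cell array 1 stood apart from the other B cell arrays, with correlations of 0.933 and 0.926 with them where they had 0.992 with each other (log2 values, across probe sets that are not independent). Its summed intensity of 13 T and NK cell markers was 6844, against 791 and 871 on B cell arrays 2 and 3, and 7594 probe sets (16.9%) were at least 2-fold above the mean of those arrays. Xist was high on that array (8408), at 30.8 and 18.1 on B cell arrays 2 and 3, and high on all plasma cell arrays (8070 to 8702). In the full fit, only B cell array 1 therefore separates the sex of the animals from the cell type. In any fit without B cell array 1 the sex of the animals cannot be told apart from the cell type. Among plasma cell arrays, array 3 differed most, with 826 probe sets (1.83%) at least 2-fold above the mean of arrays 1 and 2. For most RGS genes, fits without B cell array 1 or plasma cell array 3 are also given, while other single genes are given from the full fit only.

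Of the 22 RGS probe sets 4 were higher and 4 lower in plasma cells (limma, adjusted p at most 0.05 over all probe sets), which is 18.2% in each direction. Over all probe sets 13.4% were higher and 12.8% lower, so the members' share of calls was near that of the whole array. The arrays of the groups did not overlap for 15 of the 22, where 45.4% of all probe sets were separated in this way. The median log2 fold change of plasma cells over B cells was −0.52 for the members and −0.13 for all probe sets. The calls fell on 6 genes: Rgs10, Rgs3 and Rgs12 had higher probe sets, and Rgs13, Rgs18 and Rgs19 had lower ones. Intensities are the deposited linear values, fold changes and SE are on the log2(intensity + 16) scale, which understates changes of dim probe sets, and values listed for 3 arrays run from array 1 to array 3. A probe set counts as within background where it lies at or below the 95th percentile of 27 bacterial control probe sets on that array (23.0 to 41.8). Only 2 of the 22 were within background on all 6 arrays.

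**Figure D1:**
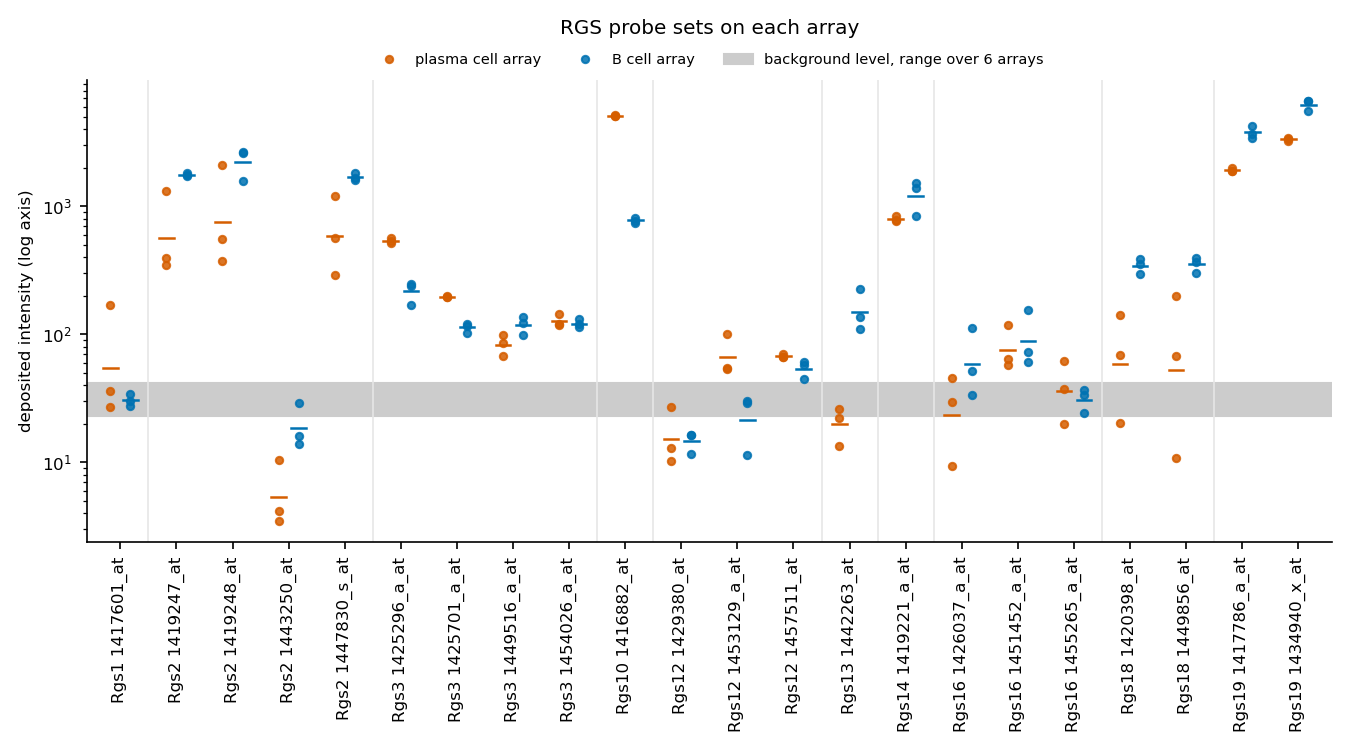
Deposited intensity (log axis) of each RGS probe set on the 3 plasma cell arrays (orange, left) and the 3 B cell arrays (blue, right), with short lines at the geometric mean of a group and a grey band for the range of the background level over the arrays. Rgs10 lies higher and Rgs19 lower in plasma cells with little spread, whereas Rgs1, Rgs2 and Rgs18 are spread out over the plasma cell arrays.

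Among the R12 members Rgs10 was higher in plasma cells. Rgs10 is a short protein that consists of little more than the RGS domain and acts on Gi alpha subunits. Its single probe set had 5109, 5079 and 5170 in plasma cells, against 814, 747 and 772 in B cells. The groups were far apart, and within each of them the arrays lay close together. The log2 fold change was 2.69 ± 0.12 (SE, n = 3 each), 6.47-fold, with limma's adjusted p = 9.2e-05, the lowest p among the RGS probe sets. It was 2.73 without B cell array 1 (adjusted p = 0.000104) and 2.69 without plasma cell array 3 (0.00131). In bulk samples a difference in the number of cells that carry a transcript and a difference in RNA per cell cannot be told apart. The promoter of Rgs10 is shown because this gene had the clearest difference. It spans 250 bases before to 50 after the annotated start, like all windows printed here (RefSeq, GRCm38.p6, read 5′ to 3′ on the gene's strand), and capitals mark matches to the motifs named further on.
Rgs10, chr7:128418123-128418422, minus strand: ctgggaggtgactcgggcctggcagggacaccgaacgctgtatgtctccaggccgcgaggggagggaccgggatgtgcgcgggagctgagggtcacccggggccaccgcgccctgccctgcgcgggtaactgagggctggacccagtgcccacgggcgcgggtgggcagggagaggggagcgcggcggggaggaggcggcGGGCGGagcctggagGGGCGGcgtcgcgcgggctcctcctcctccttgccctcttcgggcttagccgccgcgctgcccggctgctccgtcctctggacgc
This window holds 34 CG dinucleotides and 76.0% G and C, above the 95th percentile of G and C over the 32817 windows of all genes (73.7%).

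Rgs12 and Rgs14, the other R12 members, carry a GoLoco motif that binds inactive Gi alpha subunits and domains that bind Ras-like GTPases. The 3 probe sets of Rgs12 differed in their results. Probe set 1453129_a_at had 54.9, 53.2 and 99.9 in plasma cells, against 11.3, 30.0 and 28.8 in B cells. All plasma cell arrays were above all B cell arrays, and B cell array 1 was within background. It was called higher with a log2 fold change of 1.11 ± 0.30 and limma's adjusted p = 0.0413, close to the threshold. It was called without B cell array 1 (0.0495) but not without any one of the other 5 arrays (0.0705 to 0.106, the highest without plasma cell array 3). Over 16 alternatives the adjusted p ranged from 0.0144 to 0.106. Probe set 1457511_at had 65.9, 66.5 and 70.0 in plasma cells, against 44.6, 57.6 and 60.5 in B cells, which do not overlap but were not called (0.26 ± 0.15, adjusted p = 0.256). Probe set 1429380_at, annotated to the same sequence record as 1453129_a_at, was within background on all 6 arrays, with 13, 10.2 and 26.8 in plasma cells, against 11.5, 16.4 and 16.3 in B cells. Rgs14 had 782, 775 and 835 in plasma cells, against 848, 1517 and 1388 in B cells. The groups did not overlap, but B cell array 1 lay next to the plasma cells. The log2 fold change of −0.60 ± 0.24 was not called (adjusted p = 0.127). Without B cell array 1 it was −0.85 with adjusted p = 0.00291, in a fit where sex goes with cell type.

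Rgs19, the RZ member, also called GAIP, was lower in plasma cells. It is a palmitoylated protein that was found through its binding to a Gi alpha subunit. Probe set 1434940_x_at had 3421, 3263 and 3360 in plasma cells, against 5537, 6612 and 6629 in B cells. Probe set 1417786_a_at had 1905, 2001 and 1886 in plasma cells, against 3434, 4284 and 3675 in B cells. Both separated the groups, and both gave nearly the same size of change. The log2 fold changes were −0.89 ± 0.14 (limma, adjusted p = 0.00525) and −0.96 ± 0.14 (adjusted p = 0.00445). Without B cell array 1 they were −0.98 and −1.03, without plasma cell array 3 −0.90 and −0.95, all called. After median centring, under which the median log2 fold change of all probe sets was −0.01 in place of −0.13, they were −0.78 (adjusted p = 0.0832) and −0.85 (0.0604) and no longer called. The most upstream of the 3 annotated start windows of Rgs19 is shown beside that of Rgs10, as a promoter with CG dinucleotides of a gene that was lower.
Rgs19, chr2:181693928-181694227, minus strand: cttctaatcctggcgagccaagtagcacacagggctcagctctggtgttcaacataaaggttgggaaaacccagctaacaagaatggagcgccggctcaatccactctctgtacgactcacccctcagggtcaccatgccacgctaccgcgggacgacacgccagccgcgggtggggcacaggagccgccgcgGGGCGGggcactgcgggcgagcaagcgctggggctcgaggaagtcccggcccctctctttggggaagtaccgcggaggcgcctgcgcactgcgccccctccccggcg
It holds 27 CG dinucleotides and 66.7% G and C.

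The R4 member Rgs3 gave results that depended on the probe set. Rgs3 is produced in several forms, from a short one to a long one with a PDZ domain. Probe set 1425296_a_at had 565, 513 and 531 in plasma cells, against 171, 240 and 248 in B cells. Probe set 1425701_a_at had 195, 199 and 197 in plasma cells, against 103, 121 and 117 in B cells. In both the plasma cell arrays lay above every B cell array. Their log2 fold changes were 1.25 ± 0.18 (limma, adjusted p = 0.00403) and 0.72 ± 0.13 (adjusted p = 0.00896). Both were also called without B cell array 1 (1.09 and 0.66) and without plasma cell array 3 (1.25 and 0.72), and after median centring 1425701_a_at was not (0.84, adjusted p = 0.0562). Probe set 1449516_a_at lay the other way, with 67.1, 85.5 and 98.8 in plasma cells, against 99.0, 121 and 136 in B cells. The groups met without overlapping, and the difference was not called (−0.44 ± 0.19, adjusted p = 0.147). Probe set 1454026_a_at had 145, 121 and 118 in plasma cells, against 131, 114 and 119 in B cells, which overlap (0.06 ± 0.14). With the 4 probe sets averaged, the log2 fold change of Rgs3 was 0.40 and its adjusted p over genes was 0.0514. Which form each probe set reports was not tested. The windows of both annotated starts are shown because the probe sets of this gene disagreed.
Rgs3 start 1, chr4:62559597-62559896, plus strand: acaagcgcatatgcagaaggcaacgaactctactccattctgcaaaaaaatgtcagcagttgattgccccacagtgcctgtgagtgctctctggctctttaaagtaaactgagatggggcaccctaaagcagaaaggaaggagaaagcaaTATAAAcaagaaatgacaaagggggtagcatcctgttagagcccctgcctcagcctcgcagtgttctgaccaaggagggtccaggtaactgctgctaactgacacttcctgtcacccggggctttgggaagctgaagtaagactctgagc
Rgs3 start 2, chr4:62619422-62619721, plus strand: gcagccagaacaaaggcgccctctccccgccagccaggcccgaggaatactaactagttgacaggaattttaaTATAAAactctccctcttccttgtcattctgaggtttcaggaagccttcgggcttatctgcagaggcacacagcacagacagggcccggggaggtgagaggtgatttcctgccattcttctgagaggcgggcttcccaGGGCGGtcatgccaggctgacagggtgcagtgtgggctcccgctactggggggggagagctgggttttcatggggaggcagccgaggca
These windows hold 4 and 9 CG dinucleotides (the third window of Rgs19, not shown, also holds 4), and each holds 1 TATA box letter match.

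**Figure D2:**
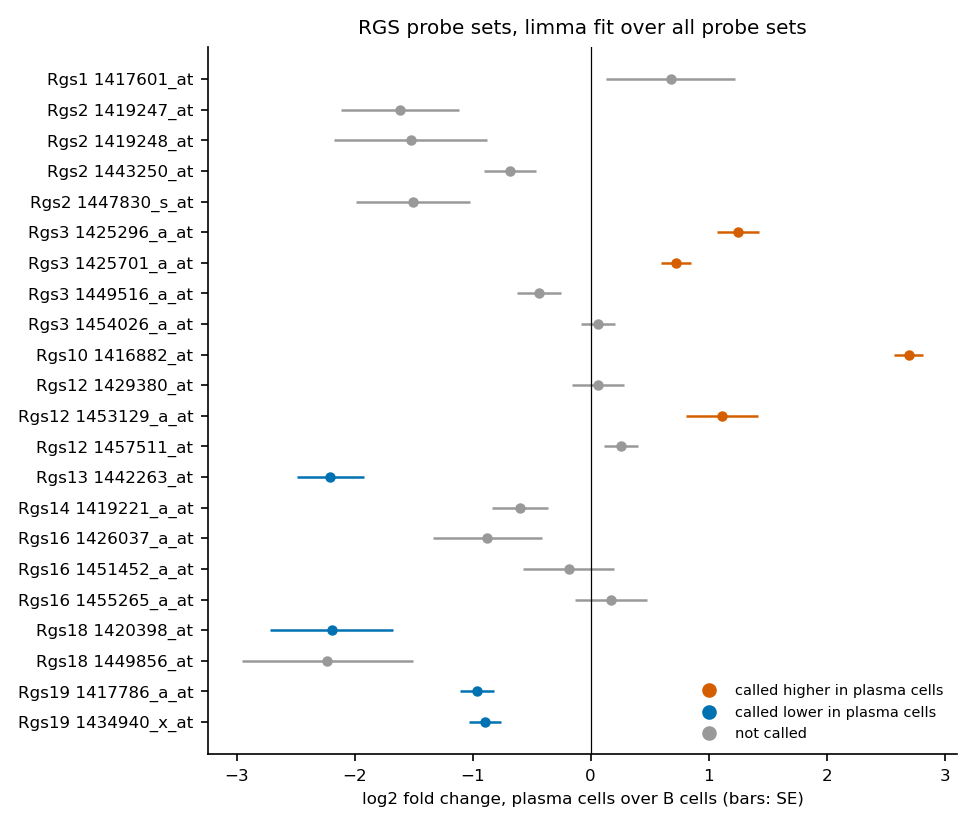
Log2 fold change of plasma cells over B cells for each RGS probe set (points, bars are SE, 3 arrays per group), coloured by the limma call over all probe sets. The 4 probe sets called higher belong to Rgs3, Rgs10 and Rgs12 and the 4 called lower to Rgs13, Rgs18 and Rgs19, and bars are wide for Rgs1, Rgs2 and Rgs18.

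The R4 members Rgs2, Rgs13, Rgs1 and Rgs18, lie beside each other in this order on mouse chromosome 1 (GRCm38.p6), with Rgs21, not analysed here, as the only other protein-coding gene of the stretch. Rgs13, a small protein known from germinal centre B cells and mast cells, was lower in plasma cells. It had 13.4, 26.1 and 22 in plasma cells, against 227, 135 and 109 in B cells. The groups were well apart, and in plasma cells it exceeded background on array 2 only, by a small margin. The log2 fold change was −2.20 ± 0.29 (limma, adjusted p = 0.00285), a size that depends on the added constant because the plasma cell values are so low, and over 18 alternatives it ranged from −2.86 to −1.36 and was always called. B cell array 1 was the highest. Without it the log2 fold change of Rgs13 was −1.93 (adjusted p = 0.0016). On that array Rgs13 lay 0.82 above the mean of the other B cell arrays on the log2 scale, less than 2-fold. Markers of several cell types were at least 2-fold above the other B cell arrays on it, as were 16.9% of all probe sets. The counts were 4 of 9 for germinal centre B cells, 5 of 9 for basophils, mast cells and eosinophils, and 7 of 11 for granulocytes. They were 9 of 13 for T and NK cells, 5 of 11 for monocytes and macrophages, 4 of 8 for erythroid cells and 0 of 8 for follicular B cells. The germinal centre markers summed to 6763, 6888 and 6963 in plasma cells, against 7750, 6969 and 6894 in B cells. Most of these sums came from Mki67 in plasma cells and from Bcl6 in B cells. Between the groups 4 of these 9 were higher in plasma cells, Mki67 (3.07 ± 0.44), S1pr2 (2.54 ± 0.17), Plxnb2 (1.30 ± 0.33) and Fas (1.25 ± 0.26), and 1 was lower, Bcl6 (−4.36 ± 0.19). Over all genes 16.7% were higher and 11.5% lower. The basophil, mast cell and eosinophil markers summed to 3896, 2821 and 3014 in plasma cells, against 1805, 1395 and 1391 in B cells, with Kit higher (4.54 ± 0.21) and Gata2 lower (−1.87 ± 0.45) among the 9. Most of the plasma cell sums came from Kit and Il5ra. Of the others, Mcpt8, Cpa3, Fcer1a, Gata2, Epx and Siglecf had lower means in plasma cells and Ms4a2 a higher one. The part of such cells in the Rgs13 values was not tested.

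Rgs18, known mainly from megakaryocytes and platelets, was lower in plasma cells by 1 of its 2 probe sets, which are annotated to the same sequence record. Probe set 1420398_at had 69.2, 20.1 and 142 in plasma cells, against 296, 351 and 389 in B cells. Probe set 1449856_at had 67.9, 10.7 and 200 in plasma cells, against 300, 397 and 366 in B cells. The groups did not overlap in either, while the plasma cell arrays differed among themselves in the same order, array 2 within background and array 3 highest. The log2 fold changes were −2.19 ± 0.52 (limma, adjusted p = 0.0263, called) and −2.23 ± 0.72 (adjusted p = 0.0706, not called). Without plasma cell array 3 both were called, at −2.70 (0.0129) and −2.96 (0.0198), without plasma cell array 2 they were −1.63 (0.0288) and −1.45 (0.0905), and without B cell array 1 −2.30 (0.0377) and −2.34 (0.0924). With the probe sets averaged, the log2 fold change of Rgs18 was −2.21 (adjusted p over genes = 0.0386). The call of 1420398_at was lost without plasma cell array 1 (0.0804) and without B cell array 2 (0.0789) or 3 (0.0809). Of 8 measured megakaryocyte and platelet markers, 2 were higher and 0 lower in plasma cells, and their sums were 1957, 1892 and 1578 in plasma cells, against 1048, 913 and 1168 in B cells, most of it from the integrin gene Itgb3, which other cells also express. The other called one, Treml1, had 44.4, 34.6 and 40.2 in plasma cells, against 12, 10.5 and 14.6 in B cells, where all 3 arrays were within background. Itga2b had 114, 122 and 167 in plasma cells, against 23.5, 73.1 and 92.7 in B cells, without overlap but not called (adjusted p = 0.114), while Pf4, Ppbp and Gp9 were at or under 89.7 on every array. Monocyte and macrophage markers had 5 of 11 lower and 2 higher in plasma cells: Ms4a7 (−2.48 ± 0.16), Lyz2 (−2.21 ± 0.29), Adgre1 (−2.19 ± 0.32), Csf1r (−1.70 ± 0.46) and Ccr2 (−1.60 ± 0.36) fell, and Mrc1 (3.88 ± 0.42) and Cd68 (1.75 ± 0.13) rose. Their sums were 3743, 4571 and 4051 in plasma cells, against 6991, 4394 and 4777 in B cells, where most of the sum came from Lyz2. Of all genes 16.7% were higher in plasma cells and 11.5% lower. The part of megakaryocytes, platelets, monocytes and macrophages in the Rgs18 values was not tested.

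Rgs2, the member that prefers Gq, had lower means in plasma cells by all 4 probe sets, none of which was called. Probe set 1419247_at had 345, 396 and 1324 in plasma cells, against 1767, 1742 and 1813 in B cells. Probe set 1419248_at, of the same sequence record, had 372, 553 and 2115 in plasma cells, against 1580, 2630 and 2640 in B cells. Probe set 1447830_s_at had 290, 567 and 1199 in plasma cells, against 1819, 1653 and 1597 in B cells. In all 3, plasma cell array 3 was the highest of its group, and only in 1419248_at did it reach into the range of the B cells. Their log2 fold changes were −1.62 ± 0.50 (limma, adjusted p = 0.0624), −1.53 ± 0.65 (0.144) and −1.50 ± 0.48 (0.0689). Without plasma cell array 3 they were −2.21 (0.00193), −2.25 (0.012) and −2.01 (0.0143), all called. Without B cell array 1 they were −1.62, −1.77 and −1.45, none called. With all arrays kept, 1419247_at and 1447830_s_at were called when the variance followed an intensity trend (0.0334 and 0.0379). After median centring none of the 3 was called (0.0525, 0.145 and 0.0582). Over all alternatives 1419247_at was called in 4 of 16, 1419248_at in 4 of 18 and 1447830_s_at in 4 of 15. With the 4 probe sets averaged the log2 fold change of Rgs2 was −1.33 (adjusted p over genes = 0.0422). By its brightest probe set it was −1.53 and not called (adjusted p over genes = 0.14). The remaining probe set, 1443250_at, was within background on all arrays, with 10.5, 3.5 and 4.2 in plasma cells, against 29.0, 13.9 and 16.1 in B cells. Leaving out plasma cell array 3 gave it no call either (0.185). Rgs2 and Rgs13 are neighbours with unlike promoters, and both are shown for that contrast.
Rgs2, chr1:144004100-144004399, minus strand: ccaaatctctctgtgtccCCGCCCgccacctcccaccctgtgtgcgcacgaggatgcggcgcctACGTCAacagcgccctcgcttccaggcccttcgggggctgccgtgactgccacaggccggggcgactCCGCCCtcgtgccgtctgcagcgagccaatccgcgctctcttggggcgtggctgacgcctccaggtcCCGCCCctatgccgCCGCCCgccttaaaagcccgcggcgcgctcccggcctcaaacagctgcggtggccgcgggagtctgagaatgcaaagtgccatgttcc
Rgs13, chr1:144177323-144177622, minus strand: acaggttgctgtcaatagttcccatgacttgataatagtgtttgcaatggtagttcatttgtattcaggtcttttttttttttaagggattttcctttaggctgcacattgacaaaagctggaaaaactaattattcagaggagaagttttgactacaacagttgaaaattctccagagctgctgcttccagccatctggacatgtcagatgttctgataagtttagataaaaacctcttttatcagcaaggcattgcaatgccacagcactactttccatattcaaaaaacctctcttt
The Rgs2 window holds 33 CG dinucleotides and 70.0% G and C, the Rgs13 window none and 36.7%.

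Rgs1, which limits the response of B cells to the chemokines of the follicle and is induced by activation, was near background in both groups with an exception on 1 array. It had 35.9, 27.2 and 168 in plasma cells, against 33.9, 30.3 and 27.5 in B cells. Only plasma cell array 3 was well above the rest. The log2 fold change of 0.68 ± 0.55 was not called (limma, adjusted p = 0.415), and without plasma cell array 3 it was 0.03 (0.937). Rgs16, an inducible member of lymphocytes and other cells, was dim in both groups. Probe set 1451452_a_at had 118, 64.4 and 57.5 in plasma cells, against 156, 60.9 and 72.2 in B cells, and 1426037_a_at had 45.3, 9.4 and 29.3 in plasma cells, against 113, 52.0 and 33.7 in B cells. In both the groups overlapped and B cell array 1 was the highest. Probe set 1455265_a_at had 19.7, 37.4 and 62.3 in plasma cells, against 33.4, 24.1 and 36.4 in B cells. None of the 3 was called, with log2 fold changes of −0.19 ± 0.38, −0.88 ± 0.46 and 0.18 ± 0.30.

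Plasma cell array 3 was the array on which the RGS genes spread most. On it 6 of the 22 probe sets were at least 2-fold above the mean of plasma cell arrays 1 and 2, where 1.83% of all probe sets were. These 6 were the probe set of Rgs1, 3 of Rgs2 and both of Rgs18, all from the stretch on chromosome 1, and were picked out after their values were seen. The log2 differences from the mean of the other arrays were 1.96 for Rgs1, 1.80, 2.18 and 1.52 for Rgs2, and 1.51 and 2.19 for Rgs18. Rgs13, from the same stretch, differed by 0.11. Of 10 early B lineage markers, 6 were also at least 2-fold above the other plasma cell arrays on array 3. The summed intensity of the 10 was 24119, 20528 and 33093 on plasma cell arrays 1 to 3, against 9582, 6098 and 5813 in B cells. Rag1, a recombinase gene, had 815, 1075 and 2250 in plasma cells, Vpreb1, a surrogate light chain gene, had 411, 264 and 2008, and Dntt, a polymerase of early lymphocytes, had 4059, 454 and 6212. In all 3 genes array 3 was the highest of the plasma cell arrays. The 2 brightest markers of that list did not rise on it: Igll1 had 8737, 8358 and 8367 in plasma cells, and Cd93 had 6883, 7077 and 6929. T and NK cell markers summed to 1727, 1758 and 2880 on the plasma cell arrays, with 3 of 13 at least 2-fold higher on array 3. Markers of follicular B cells did not follow, with 0 of 8 at least 2-fold higher and a sum of 3597 on array 3, against 4505 and 4392 on arrays 1 and 2. Granulocyte markers summed to 8853, 21159 and 15343 on the plasma cell arrays, against 13382, 3074 and 2026 in B cells. Of these 11 markers, 5 were at least 2-fold above the other plasma cell arrays on array 2 and 0 on array 3. The part of these cell types in the values of Rgs1, Rgs2 and Rgs18 was not tested. Without plasma cell array 3 the counts of RGS probe sets were 3 higher and 8 lower, where 9.81% and 9.01% of all probe sets were called higher and lower. Without B cell array 1 they were 4 higher and 5 lower, against 18.1% and 20.7% of all probe sets.

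**Figure D3:**
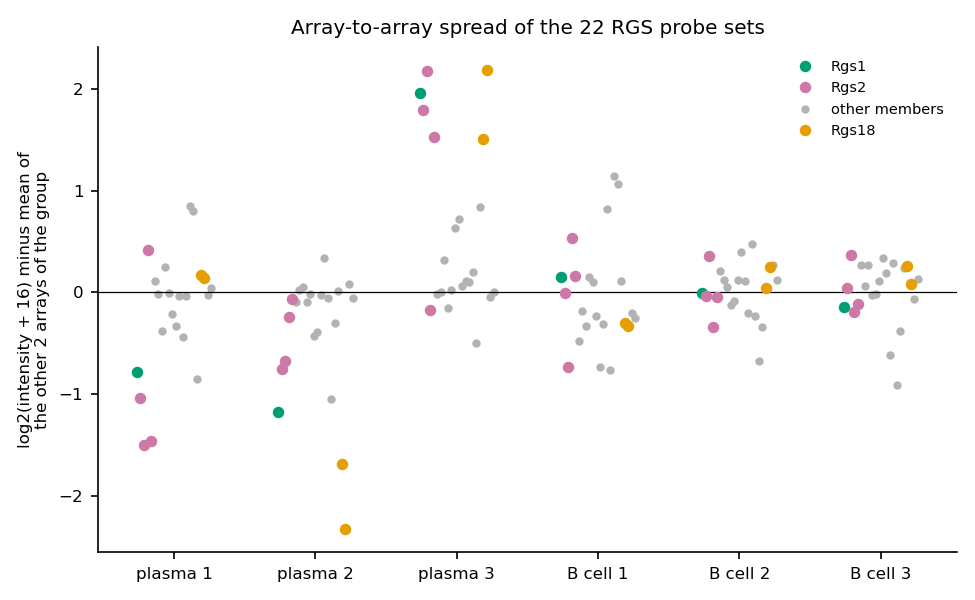
Difference of each RGS probe set from the mean of the other 2 arrays of its group, on the log2(intensity + 16) scale, for every array. On plasma cell array 3, Rgs1, both Rgs18 probe sets and 3 of the 4 Rgs2 probe sets lie 1.51 to 2.19 above the other plasma cell arrays, and the B cell arrays differ less in these genes.

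RefSeq start windows were found for 7 of the 10 members, 11 windows in all. Letters were searched on both strands, and a match is only a description of these letters. The GC box letters GGGCGG were in 8 of 11 member windows, against 35.6% of all windows. The TATA box letters TATAAA were in 2 of 11 against 13.6%, both of Rgs3. The core of the cyclic AMP response element, TGACGT, was in 1 of 11, that of Rgs2, against 7.51%, and the E box CACGTG in 1, of Rgs19, against 7.15%. The octamer ATTTGCAT and the Blimp-1 type letters GAAAGTG were in 0 of 11, against 1.74% and 4.81%. Windows of 1 gene can overlap, as the first and second of Rgs19 do. GC box letters were in the windows of Rgs2, Rgs10 and Rgs16, in both of Rgs12, in 1 of 2 of Rgs3 and in 2 of 3 of Rgs19, and not in that of Rgs13.

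The nearest patterns were sought among 16326 named genes by the root mean square difference over the 6 arrays, after each gene was centred on its mean of log2 values. This is a description, and most of what such genes share is the difference between the groups. Nearest to Rgs10 were Cln6 (0.06), with 1733 ± 48.7 in plasma cells, against 237 ± 13.5 in B cells (SD, n = 3 each), Prss28 (0.07), whose B cell values were within background, and Spcs2 (0.07), a signal peptidase subunit gene with 10448 ± 151 in plasma cells, against 1559 ± 183 in B cells. Nearest to Rgs19 (1434940_x_at) were Prr14 (0.03), Zfp871 (0.03) and Rap1gds1 (0.03), of which Prr14 had 1609 ± 71.7 in plasma cells, against 3043 ± 302 in B cells.

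The other genes of G protein signalling were counted with 1 probe set per gene, the brightest. Of 116 listed, 108 were measured, and 27 (25%) were higher and 29 (26.9%) lower in plasma cells, where 16.7% of all genes were higher and 11.5% lower. The median log2 fold change was −0.22 for these genes and −0.06 for all genes. Of 9 other RGS genes 1 was higher and 1 lower. Rgs9 had 151, 138 and 116 in plasma cells, against 88.5, 40.0 and 22.4 (within background) in B cells (1.30 ± 0.37, limma, adjusted p = 0.0475). Rgs7 was within background in plasma cells and had 39.8 (within background), 46.0 and 30.7 in B cells, at least 1.26-fold lower in plasma cells (adjusted p = 0.000791). Such a bound sets the brighter group's mean against the lowest level that exceeds background on the dim group's arrays. It uses log2 intensities without the added constant, unlike the fitted fold changes, and can therefore exceed them. Over all probe sets of these 9 genes 11 of 20 were within background on every array, against 2 of 22 for the 10 members. Of 9 other proteins with an RGS domain 2 were higher and 3 lower. They included the activators of RhoA that act downstream of the G12 class: Arhgef12 had 3856, 3955 and 3599 in plasma cells, against 608, 908 and 903 in B cells (2.24 ± 0.19), and Arhgef1 had 1313, 1342 and 1631 in plasma cells, against 4002, 6003 and 6369 in B cells (−1.90 ± 0.22), each without overlap.

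Among 13 alpha subunits, the direct targets of RGS proteins, 3 were higher and 0 lower, where 16.7% of all genes were higher and 11.5% lower. Gnaz, a member of the Gi class that hydrolyses GTP slowly, had 622, 990 and 442 in plasma cells, against 40.7, 15.9 and 11.3 in B cells, and rose by 4.18 ± 0.39 (limma, adjusted p = 0.000846). Its B cell values exceeded background on array 1 only, so the size depends on the added constant. Gna14 (2.67 ± 0.28) and Gnaq (0.78 ± 0.16), both of the Gq class, also rose. The main Gi subunits of lymphocytes, chosen after their values were seen, were not called: Gnai2 had 3632 ± 35.3 in plasma cells, against 5227 ± 774 in B cells (SD, n = 3 each; adjusted p = 0.0603), and Gnai3 had 1804 ± 47.4 in plasma cells, against 2105 ± 91.6 in B cells (adjusted p = 0.245). Of 15 beta and gamma subunits 5 were higher and 3 lower, led by Gng12 (2.81 ± 0.13) and Gnb4 (2.74 ± 0.20) and, at the other end, Gngt2 (−2.48 ± 0.30).

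Receptor kinases and arrestins, which silence receptors by another route, had 2 of 7 members higher and 4 lower. For this and the next lists, the shares of all genes are again 16.7% higher and 11.5% lower. Grk4 (2.03 ± 0.27) and Grk5 (1.80 ± 0.37) rose, while Grk3 (−2.46 ± 0.40), Arrb2 (−1.59 ± 0.33), Arrb1 (−1.47 ± 0.23) and Grk6 (−1.16 ± 0.21) fell. Of 9 other regulators 3 were higher and 1 lower: Ccdc88a, a non-receptor activator of Gi (2.93 ± 0.24), and Pdcl (0.52 ± 0.13) rose, Gpsm2, within background in B cells, was at least 4.38-fold higher, and Gpsm3 fell (−2.57 ± 0.29). Of 25 chemoattractant and lipid receptors 5 were higher and 13 lower. Cxcr3 had 3133, 2776 and 2665 in plasma cells, against 239, 204 and 238 in B cells. P2ry14 rose by 3.78 ± 0.19, and Ccr10, within background in B cells, was at least 9.39-fold higher. The largest falls in this list were those of Cxcr5 (−7.04 ± 0.33), Ccr7 (−5.72 ± 0.37) and Ccr6 (−5.41 ± 0.30). The sizes for Cxcr5, above background on 1 plasma cell array, and P2ry14, above it on 1 B cell array, depend on the added constant. Of 21 effectors 6 were higher and 4 lower, with Rapgef3, a cyclic AMP sensor (4.51 ± 0.45), at one end and Plcb2, a phospholipase activated by Gq and by beta-gamma subunits (−2.04 ± 0.16), at the other.

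**Figure D4:**
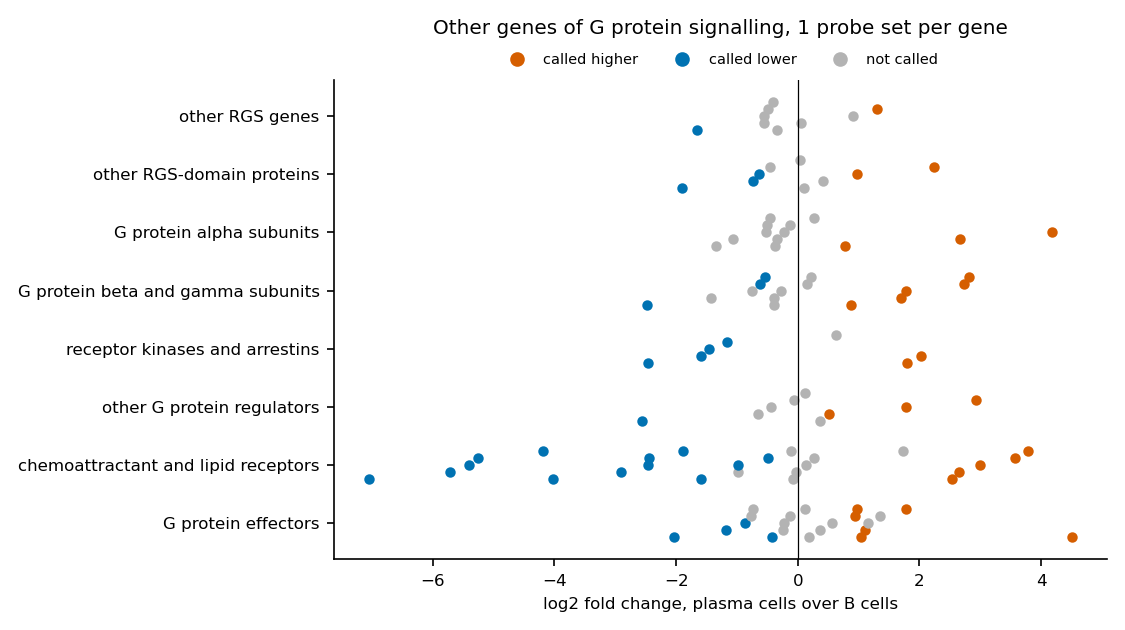
Log2 fold change of plasma cells over B cells for the other listed genes of G protein signalling, 1 point per gene and 1 line per list, coloured by the limma call. Receptors spread widest, from −7.04 for Cxcr5 to 3.78 for P2ry14, both sizes that depend on the added constant. Of 13 alpha subunits 3 are called higher and 0 lower, where 16.7% of all genes are higher and 11.5% lower.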

How the data were processed

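Expression was measured on 6 Affymetrix arrays, 3 of plasma cells and 3 of B cells, from total RNA amplified with NuGEN Ovation V2 and labelled with biotin, per the labels' protocols. The authors deposited linear intensity values, 1 per probe set and array, and 0 sample columns were left unmatched. The summarisation, background correction and normalization behind them are not given in the sources used here.

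Of 45101 probe sets 64 were controls, and 45037 were tested. The platform annotation, dated 2016, gave 1 symbol for 34945, several for 932 and none here for 9160, and 34741 were matched by Entrez identifier against RefSeq (GRCm38.p6). No probe set with several symbols named a member. Values were transformed as log2(intensity + 16) and plasma cells compared with B cells by limma 3.58.1 in R 4.3.3 (lmFit, eBayes), with Benjamini-Hochberg adjustment over all 45037 probe sets and a threshold of 0.05. In gene lists the brightest probe set (highest mean over the 6 arrays) stood for a gene.

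The members and lists were chosen with earlier results of these data known. Named genes were all members, up to 3 called genes in each direction per pathway list, the 2 brightest markers of a list, and genes fixed by name. Others, such as Gnai2, Gnai3, Grk6 and the markers beyond the 2 brightest of a list, were chosen after their values were seen. Tested on simulated data (45037 probe sets, 50 changed at each fold), the procedure recovered 43 at 8-fold, 28 at 4-fold, 4 at 2-fold and 1 at 1.5-fold, with 2 false calls. Far fewer probe sets differed in the simulation than were called here (6036 higher and 5761 lower). The adjustment is stricter when few differ, so these recoveries do not give the rates for this comparison. The number of arrays limits the precision. Promoter windows are RefSeq's.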

Additional observations from a re-analysis of the deposited data

How the results depend on the processing

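Each result was recomputed with constants of 1 and 64, quantile normalization, median centring, a background filter, a variance trend, array weights, the replicate block, each array left out, without x and s probe sets, and by gene, plus, chosen after seeing the data, without B cell array 1 and plasma cell array 3 together.
The count of RGS probe sets higher in plasma cells, 4, became 2 after median centring, and by gene it was 2 (brightest probe set) or 1 (mean of probe sets). The count of lower ones, 4, became 11 with array weights, 7 with the variance trend, 2 after median centring, 10 without both arrays and 2 of 10 genes with the brightest probe set. With 1 array left out it ranged from 3 to 8, the 8 without plasma cell array 3.
Over all probe sets, 6036 higher became 9645 with array weights, and 3213 and 3010 by gene; 5761 lower became 11396 with array weights, 3521 after median centring, 9167 without both arrays, and 2248 and 2344 by gene. With 1 array left out, higher ones ranged from 4012 (without plasma cell array 1) to 8155 and lower ones from 3236 (without plasma cell array 1; 3372 without plasma cell array 2) to 9331 (without B cell array 1). Gene-level counts are smaller because fewer features were tested. The other causes were not tested. The 4 RGS signs that turned were of probe sets never called: Rgs12 1429380_at (−0.081 with array weights, −0.23 without both arrays, −0.15 to 0.20 with 1 array left out, −0.018 without B cell array 1), Rgs16 1451452_a_at (0.30, 0.33, and −0.45 to 0.17), Rgs16 1455265_a_at (−0.069 without both arrays and −0.11 to 0.46) and Rgs3 1454026_a_at (−0.020 to 0.12). Deviations of same-numbered arrays from their group means correlated at 0.0495, 0.0032 and 0.0529. Plasma cell arrays 1 and 3 correlated best with their own number, and plasma cell array 2 with B cell array 1 (0.0065). Values this small cannot show whether same-numbered arrays were prepared together, and the labels give only a number. With the replicate block 4 RGS probe sets were higher and 4 lower, and pathway genes numbered 26 higher and 22 lower. Pathway counts stayed between 20 and 33 higher and between 20 and 42 lower. Dim probe sets near background limit what could be detected for Rgs1, Rgs12 and Rgs16.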
